A study of Saccharomyces cerevisiae with 72 samples.

Results

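The genes described here are 7 genes of budding yeast (Saccharomyces cerevisiae) that carry an intron and act in meiosis: REC107, REC114, HFM1, MEI4, AMA1, HOP2 and DMC1. They were chosen by name, as meiotic genes with introns, and all 7 were found among the 982 genes named on the arrays. Each had an intron, an exon and a junction probe, 21 of the 1536 probes in all. The comparison set was the 224 other genes with the same 3 kinds of probe, of which 97 encode ribosomal proteins and 127 do not.

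Meiotic recombination starts with programmed breaks made by Spo11, and Rec107 (also called Mer2), Rec114 and Mei4 form an accessory complex needed for those breaks. Hfm1 (Mer3) is a helicase that helps recombination intermediates become crossovers, Dmc1 is the meiotic strand exchange protein, Hop2 keeps pairing to homologous chromosomes, and Ama1 activates the anaphase-promoting complex in meiosis. In growing cells these genes are largely repressed, and introns of several of them, those of REC107, HFM1 and AMA1 among them, are spliced well only when the meiotic protein Mer1 acts together with the U1 snRNP protein Nam8. Pre-mRNA that leaves the nucleus unspliced usually meets a premature stop codon and is then a substrate of nonsense-mediated decay, which needs the helicase Upf1 and ends in digestion by the 5′ to 3′ exonuclease Xrn1. The nuclear exosome, with its subunit Rrp6, degrades RNA inside the nucleus.

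The study asked how splicing responds within minutes to amino-acid starvation and to ethanol, and what the loss of non-essential decay factors does. Total RNA was compared in 2 colours on 72 arrays, which form 36 pairs of dye-swapped arrays of the same 2 extracts and 11 comparisons. Strains lacking UPF1, XRN1, RRP6, RAI1, SKI2 or RTT103 were each set against a matched wild type in medium labelled MIN, with 1 pair of arrays per strain and therefore no replicate and no test. Of the other factors, Rai1 is a partner of the nuclear 5′ to 3′ exonuclease Rat1, Ski2 is a helicase of the cytoplasmic exosome pathway and Rtt103 is a transcription termination factor. Wild type and the gcn2 deletion, which lacks the kinase that senses uncharged tRNA, were each followed 2, 4, 6, 10, 15 and 20 min into 50 mM 3-AT, an inhibitor of histidine synthesis, against their own untreated cells, and a further course set the treated gcn2 deletion against treated wild type. The prp8-1 strain, mutated in a core protein of the spliceosome, was compared with wild type at 37 C at the same 6 times, and wild type in 10% ethanol with untreated wild type at 5, 10, 15, 20, 25 and 30 min. The label of prp8-1 names YPD medium and that of its wild type names none, so a difference in medium cannot be told apart from the mutation. The labels name no meiotic induction and no strain background, mating type or ploidy. No label says that the 6 times of a course came from separate cultures, so p-values of courses measure the spread between time points, which may be technical.

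Every value is a log2 ratio, the first-named RNA over the second, averaged over both arrays of a pair. In courses a value is given as the mean over n = 6 time points ± SE from limma, and a call means an adjusted p below 0.05 over all probes of the table, or over the 231 genes for differences between probes. In deletions a probe counts as past the limit where the mean of both arrays lies 0.5 or more from 0 and both arrays lie on the same side. The deleted gene was far below 0 in its own strain, at -4.35 for GCN2, -4.01 for RRP6, -3.50 for NAM7 (the UPF1 gene), -3.24 for XRN1, -2.50 for SKI2 and -2.37 for RAI1. No probe for RTT103 was found, which leaves the label of the library labelled rtt103 deletion unchecked, and for ethanol the direction of the ratio is likely but unchecked. The arrays of a pair correlated over all probes at 0.148 to 0.917, lowest for wild type 2 min into 3-AT. The 3-AT courses lie in one deposited table and all other comparisons in another, and the tables may have been normalized separately. Ratios carry no level of a gene, and in bulk RNA fewer cells and less RNA per cell cannot be told apart.

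The kind of each probe was read from the print order of the slide, where the intron and exon probes of a gene lie in adjacent wells and the later well was higher in prp8-1 in 215 of 224 genes. No source used here states the kinds, and a single probe may be misnamed. Among the 7 meiotic genes the later well was higher in prp8-1 in 4. For AMA1, HOP2 and HFM1 it was not, so the words exon and intron rest for these genes on the print order alone. Values with the names of these 3 genes turned were added after the data were seen. Where they were computed, they are given if they change a count or a direction. The junction kind had less backing. In prp8-1 the junction probe lay below the exon probe in 76 of the 97 ribosomal protein genes, but in 68 of the 127 others. In the 7 meiotic genes the junction minus exon difference there was called higher in 5 and lower in 1, with a median of 0.39. It was called higher in 51 and lower in 56 of the 127 others, with a median of -0.06. In the 97 ribosomal protein genes it was higher in 14 and lower in 49. The count in the 7 genes uses the print-order names and was not redone with the names turned. Whether the junction probes of the 7 genes report spliced RNA was not tested.

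**Figure D1:**
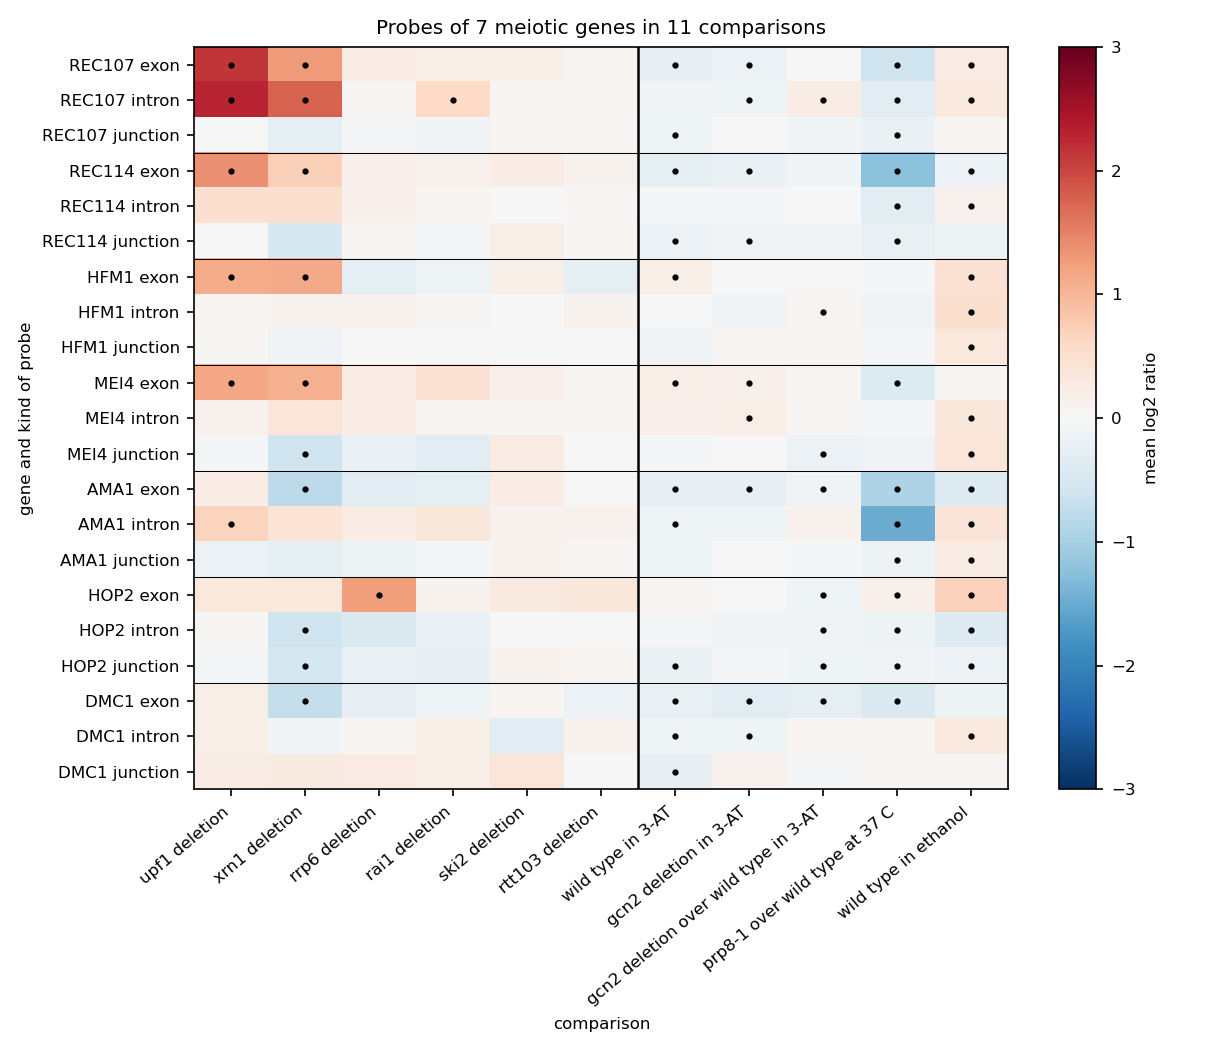
Mean log2 ratio (colour) of each of the 21 probes (rows, by gene and kind) in the 6 deletion strains and the 5 courses (columns). A dot marks a probe past the limit of 0.5 in a deletion or called by limma in a course. Among the strongest colours are REC107, HFM1 and MEI4 in the upf1 and xrn1 columns and REC114 in the upf1 column. The HOP2 exon probe in the rrp6 column, and REC114 and AMA1 in the prp8-1 column, are others. In the xrn1 column the lower AMA1 and DMC1 exon probes are about as strong as the higher REC114 exon probe.

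Without Upf1, RNA of all 3 genes of the break-forming complex and of HFM1 was higher, and among these 4 genes only REC107 had an intron probe past the limit as well. REC107 stood at 2.30 and 2.00 on the exon probe of its 2 arrays and at 2.15 and 2.40 on the intron probe. The means were 2.15 and 2.28, or 4.44-fold and 4.85-fold above wild type. Both arrays of both probes were high, while the junction probe of the same gene read 0.11 and -0.13, a mean of -0.01. Among the 231 genes the REC107 exon probe ranked 1 and its intron probe 2 from the top, and its junction minus exon difference of -2.16 was the lowest, at rank 231.

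REC114 had an exon probe at 1.49 and 1.26 in the upf1 deletion, a mean of 1.37 or 2.59-fold, which ranked 3 among exon probes. Its intron probe read 0.56 and 0.39, and that mean of 0.48 lay just under the limit. The MEI4 exon probe read 0.93 and 1.38, a mean of 1.15 or 2.23-fold, and its intron probe -0.17 and 0.41, on both sides of 0. HFM1 followed the same order, with 1.14 and 1.07 on the exon probe, a mean of 1.11 or 2.16-fold, and a mean of 0.05 on the intron probe. In all 3 genes the exon probe was high on both arrays and the intron probe was not past the limit. Their junction probes lay at 0.02 for REC114, -0.05 for MEI4 and 0.03 for HFM1. The junction minus exon difference was -1.35 for REC114, -1.21 for MEI4 and -1.07 for HFM1, at ranks 228, 227 and 225 of 231. The HFM1 value rests on its print-order names, and with the names turned it was -0.02, at rank 101.

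AMA1 was the remaining gene past the limit without Upf1, through its intron probe at 0.51 and 0.82, a mean of 0.67 or 1.59-fold. Its exon probe read 0.63 and -0.17, on both sides of 0. HOP2 and DMC1 had no probe past the limit. The means of their exon probes were 0.31 and 0.18, and the DMC1 arrays lay at 0.67 and -0.30. In all, 4 of the 7 exon probes were past the limit upwards, against a background of 10.8% of the 231 exon probes, and 2 of the 7 intron probes, against 14.3%. No junction probe was past it, and none of the 21 probes was past it downwards. Over all 1536 probes, 10.2% were past the limit upwards and 7.42% downwards. The median exon probe of the 7 genes was at 1.11, while the median of the 127 other genes with introns was 0.07 and that of the 97 ribosomal protein genes 0.04. A stricter limit of 1 kept 5 of the 6 probes. With the names turned, the counts of 4 exon and 2 intron probes stood, with AMA1 among the exon and HFM1 among the intron probes, and the median exon probe was at 0.67.

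**Figure D2:**
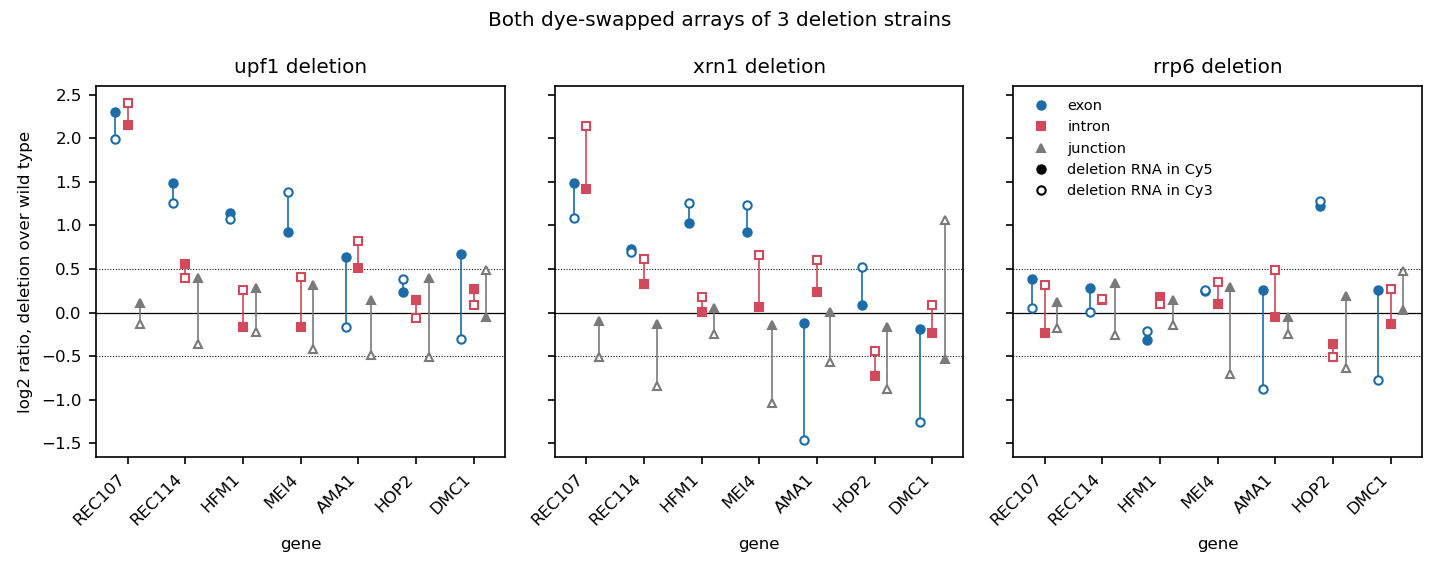
Log2 ratio (vertical axis) of each probe on both arrays of the upf1, xrn1 and rrp6 deletions, by gene. Circles are exon, squares intron and triangles junction probes; filled symbols have the deletion RNA in Cy5 and open ones in Cy3, joined by a line, and dotted lines mark 0.5 and -0.5. The REC107 exon and intron probes lie above 1.9 on both arrays without Upf1 and above 1 without Xrn1, and the HOP2 exon probe stands alone above 1.2 without Rrp6.

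Without Xrn1 the exon probes of REC107, HFM1, MEI4 and REC114 were past the limit upwards. REC107 was again highest, with its intron probe at 1.42 and 2.14, a mean of 1.78 or 3.44-fold and rank 4 of 231. Its exon probe read 1.48 and 1.09, a mean of 1.28 or 2.44-fold, also at rank 4. Both REC107 means were lower than without Upf1, but with 1 pair of arrays each the difference between the strains was not tested. LSM8, the neighbour of REC107 in the RefSeq gene order and a gene for an RNA-binding ring protein, stood at 1.68 without Xrn1 and at 0.13 without Upf1. Its part in the REC107 reading without Xrn1 was not tested.

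The exon probe of HFM1 read 1.03 and 1.26 without Xrn1, a mean of 1.15 or 2.22-fold, beside a mean of 1.11 without Upf1. MEI4 read 0.92 and 1.24 on its exon probe, a mean of 1.08 or 2.11-fold, and REC114 read 0.73 and 0.70, a mean of 0.71 or 1.64-fold. Intron probes of these 3 genes were at 0.09 for HFM1, 0.36 for MEI4 and 0.47 for REC114, none of them past the limit. The RTG2 gene next to HFM1 lay at -0.05 without Xrn1 and ACA1 next to MEI4 at 0.48. The other neighbours were not analysed here, nor were the neighbours of REC114.

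The remaining genes went the other way or showed no difference past the limit without Xrn1. The AMA1 exon probe lay at -0.79 and the DMC1 exon probe at -0.72, but each mean rests largely on 1 array, -0.11 and -1.46 for AMA1 and -0.19 and -1.25 for DMC1. The HOP2 intron probe read -0.73 and -0.44, with both arrays low. The junction probes of HOP2 at -0.52 and of MEI4 at -0.59 were past the limit downwards, with the Cy3 array the lower in both. With 4 of 7 exon probes and 1 of 7 intron probes past the limit upwards, the backgrounds were 16% of exon and 10.4% of intron probes. Over all kinds, 5 of the 21 probes were past it upwards against 20.7% of all probes, and 5 downwards against 18.4%, so the total count was near the background in this strain. The median exon probe was at 0.71 in the 7 genes and at -0.04 in both the 127 and the 97. With the names turned, 3 exon and 2 intron probes were past the limit upwards and the median exon probe was at 0.42. On the Cy3 array alone 17 of the 21 probes were past the limit. The shares of all probes above are for the mean of both arrays, so this count only describes.

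**Figure D3:**
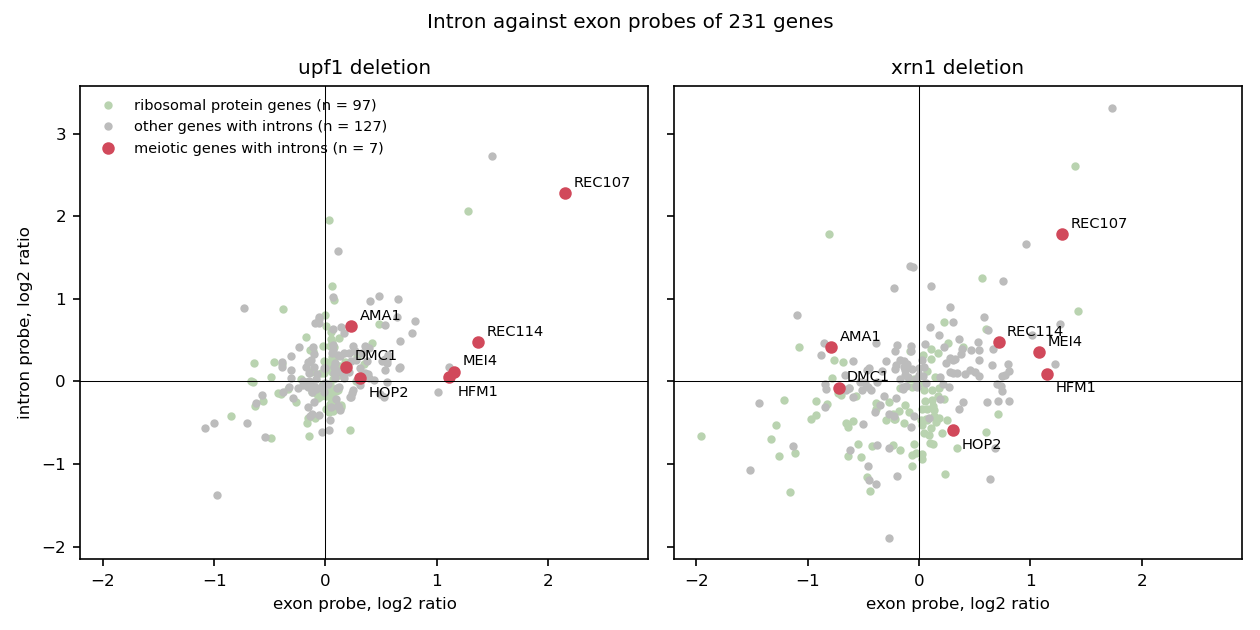
Intron probe against exon probe (log2 ratios) of 231 genes in the upf1 and xrn1 deletions, 1 point per gene, with the 7 meiotic genes named. REC107 lies far to the upper right in both strains, at 2.15 and 2.28 without Upf1, while REC114, MEI4 and HFM1 lie to the right with intron probes under 0.5.

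The loss of Rrp6 gave another pattern. Of the 21 probes only the HOP2 exon probe was past the limit, at 1.22 and 1.28, a mean of 1.25 or 2.38-fold and rank 2 of 231. Both arrays were high, and no other deletion brought this probe above 0.35. Its intron probe read -0.36 and -0.51 and its junction probe 0.20 and -0.64. The HOP2 intron minus exon difference of -1.68 and junction minus exon difference of -1.47 were each the lowest of the 231 genes. Both rest on the print-order names of HOP2. With the names turned they were 1.68, at rank 4 from the top, and 0.21, at rank 60, and the probe past the limit was the intron probe. The REC107 exon probe was at 0.22 and its intron probe at 0.04. Over all probes, 13.5% were past the limit in either direction. ACA1 next to MEI4 was at 0.66, while the MEI4 exon probe was at 0.26.

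Loss of Rai1 put the REC107 intron probe at 0.33 and 0.89, a mean of 0.61 or 1.52-fold and rank 6 of 231, and no other probe of the 7 genes past the limit, against 12.5% of all probes. The Cy5 array alone was not past 0.5. Without Ski2 and without Rtt103 no probe of the 7 genes was past the limit, and 5.08% and 4.49% of all probes were. Exon probes of the 7 genes lay between 0.07 and 0.27 without Ski2 and between -0.27 and 0.35 without Rtt103. In the 30 pairs of arrays of the 5 courses the REC107 intron probe ranged from -0.40 to 0.40, below all 4 array values of the upf1 and xrn1 deletions, a range that spans both deposited tables.

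Several of these probes read differently with each dye, and the mean of a pair cancels this only where both arrays are sound. The AMA1 exon probe was higher on the Cy5 array in all 6 deletion pairs, by 0.80 to 1.48 with a median of 1.29. The DMC1 exon probe showed the same, by 0.83 to 1.19 with a median of 1.03. Junction probes of MEI4, HOP2 and REC114 were higher on the Cy5 array in all 6 pairs too, with medians of 0.91, 0.88 and 0.76, whereas the DMC1 junction and REC107 intron probes were lower on it in all 6, with medians of -0.60 and -0.56. Over all probes the median size of this difference was 0.23 to 0.28 in the deletions. The exon probes of REC107, REC114, HFM1 and MEI4 stayed past the limit on each array by itself, both without Upf1 and without Xrn1, as did both REC107 intron probes.

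In prp8-1 AMA1 and REC114 fell most among the meiotic genes. Of the 7 intron probes 4 fell and none rose, or 3 fell and 1, that of HOP2, rose with the names of AMA1, HOP2 and HFM1 turned, while 104 of the 127 other genes and 92 of the 97 ribosomal protein genes rose. The median intron probe was at -0.16 in the 7 genes (-0.07 with the names turned), 0.58 in the 127 and 1.90 in the 97. Of all probes, 39.6% rose and 39.1% fell. The prp8-1 values of the comparison genes were used to name their intron probes, so their counts only describe; those of the 7 were not used.

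AMA1 fell most in prp8-1, and its exon and intron probes fell together. Its intron probe was at -0.45, -1.003, -1.38, -2.08, -2.08 and -1.99 from 2 to 20 min, a mean of -1.50 ± 0.13 (SE, n = 6; limma adjusted p = 4.36e-05). Every time point was below 0 and the last 3 were the lowest. The exon probe fell to -1.33 at 10 min and had a mean of -0.93 ± 0.094 (adjusted p = 9.04e-05), while the junction probe was at -0.15.

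REC114 was at -0.39, -0.95, -1.09, -1.66, -1.72 and -1.58 on its exon probe, with a mean of -1.23 ± 0.11 (SE, n = 6; limma adjusted p = 3.86e-05) and a slope of -0.06 per min (adjusted p = 0.0342). Its intron probe fell by less, to a mean of -0.34 ± 0.044, and lay between -0.53 and -0.26 with no such course. REC107 was low from the first time on, between -0.67 and -0.50 on the exon probe (mean -0.59 ± 0.036) and between -0.40 and -0.20 on the intron probe (mean -0.31 ± 0.039). The exon probes of MEI4 and DMC1 fell to means of -0.40 ± 0.034 and -0.43 ± 0.040, while their intron probes, at -0.05 and 0.07, were not called. On the Cy5 arrays alone the DMC1 exon probe was at 0.06. HFM1 had no probe called. HOP2 was the only gene with a higher exon probe, at 0.15 ± 0.039, and its intron probe was at -0.16 ± 0.038. In all, 5 of the 7 exon probes fell and 1 rose, or 6 fell and 0 rose with the names turned. Exon probes also fell in 99 of the 127 other genes and rose in 14, so the count in the 7 genes was near that share. Of the 97 ribosomal protein genes 6 fell and 66 rose. The median exon probe was at -0.43 in the 7 genes, -0.45 in the 127 and 0.23 in the 97.

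The intron minus exon difference rose in prp8-1 in REC114, DMC1, MEI4 and REC107, while none of their intron probes rose. REC114 had a difference of 0.89 ± 0.12 (SE, n = 6; limma adjusted p = 0.000286), DMC1 0.50 ± 0.073, MEI4 0.35 ± 0.062 and REC107 0.27 ± 0.059. AMA1 had -0.57 ± 0.070 and HOP2 -0.30 ± 0.061, and HFM1, at -0.03, was not called. The print-order names thus gave 4 genes higher and 2 lower, and the turned names 6 higher and 0 lower, against 114 of the 127 and 88 of the 97 higher. The genes to turn were picked by their prp8-1 values, which fixes that second count. Over the 231 genes 93.1% were called in either direction, so 6 of 7 is near the background. The median difference was 0.27 in the 7 genes (0.35 with the names turned), 1.08 in the 127 and 1.62 in the 97. On single dyes 3 of these turned: DMC1 was at -0.09 and REC107 at -0.17 on the Cy5 arrays, and AMA1 at 0.14 on the Cy3 arrays.

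Of 6 measured meiotic genes without introns 3 fell in prp8-1, against 39.1% of all probes. IME1, the master regulator of meiotic entry, was at -1.25 ± 0.068 (SE, n = 6; limma adjusted p = 4.57e-06), RIM4, an RNA-binding protein of meiosis, at -1.13 ± 0.075, and MEK1, a meiotic checkpoint kinase, at -0.40 ± 0.039. IME4, NDT80 and MER1 were not called. SPO1, a meiotic gene with an intron, was at -1.35 on its exon probe and -0.41 on its intron probe. PCH2, another such gene, fell to -0.33 on its exon probe and rose to 0.37 on its intron probe. The single probe of SAE3, at -0.01, was not called.

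**Figure D4:**
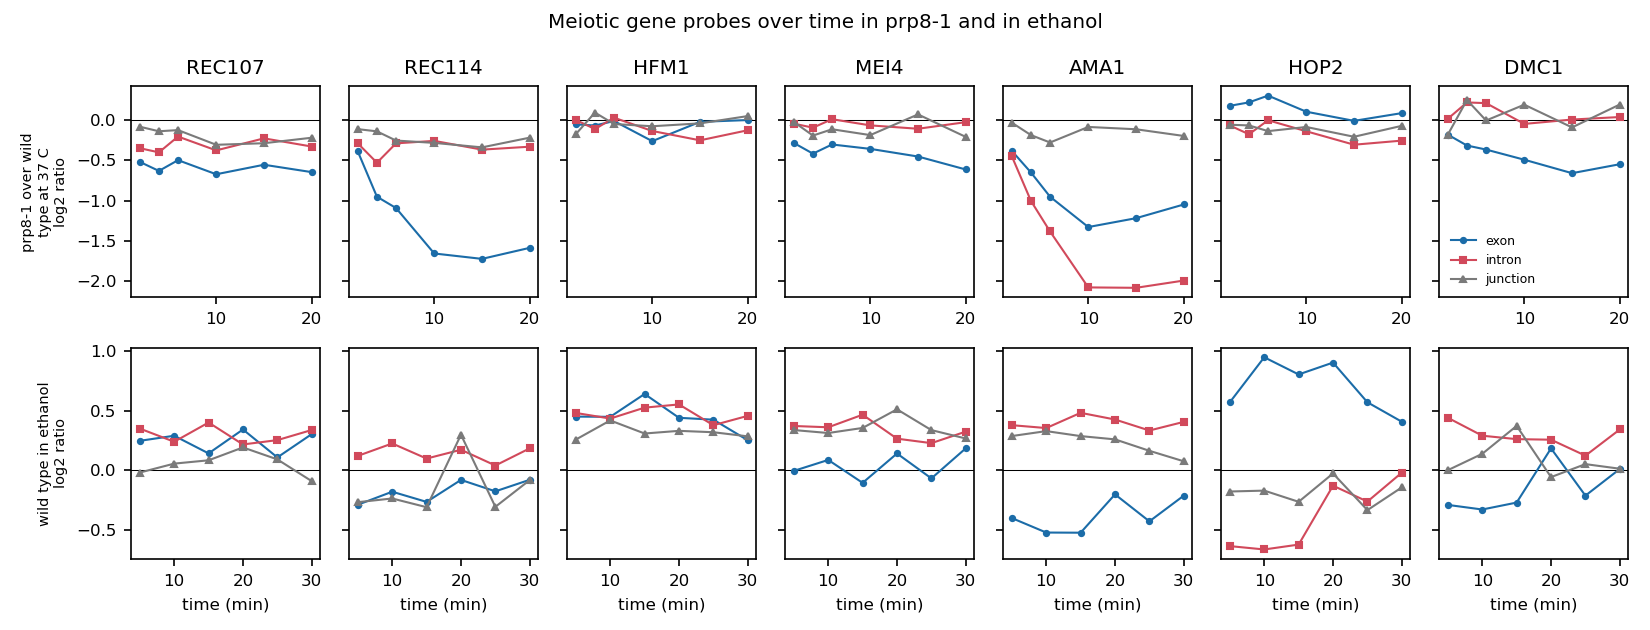
Log2 ratio (vertical axis) against time in minutes for the exon, intron and junction probes of each gene, each point the mean of 1 pair of arrays, in prp8-1 over wild type at 37 C (top) and in wild type in ethanol over untreated (bottom). In the top row the REC114 exon probe and the AMA1 exon and intron probes descend to about 10 min; in the bottom row the HOP2 exon probe stays above 0.4 with its intron probe below 0.

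In ethanol 6 of the 7 intron probes rose and 1 fell, near the 89 of 127 other genes whose intron probe rose, and no called probe moved by more than 1.62-fold. The one that fell was that of HOP2, or that of AMA1 with the names turned. HOP2 moved most, with an exon probe at 0.57, 0.95, 0.80, 0.90, 0.57 and 0.41 from 5 to 30 min, a mean of 0.70 ± 0.071 (SE, n = 6; limma adjusted p = 2.15e-05) or 1.62-fold. All 6 times were above 0. Its intron probe was at -0.63, -0.66, -0.62, -0.13, -0.26 and -0.02, a mean of -0.39 ± 0.056 (adjusted p = 0.000191), lowest in the first 3 times. The HOP2 intron minus exon difference of -1.09 ± 0.081 had the sign that this gene showed without Rrp6 under the same names.

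HFM1 rose on all 3 probes in ethanol, by 0.44 ± 0.050 on the exon, 0.47 ± 0.043 on the intron and 0.32 ± 0.042 on the junction probe, and its lowest time was at 0.25. AMA1 rose by 0.40 ± 0.042 on the intron and 0.23 ± 0.041 on the junction probe and fell to -0.38 ± 0.053 on the exon probe, with no overlap between its exon and intron probes at any time. MEI4 rose by 0.34 ± 0.044 on the intron and 0.35 ± 0.046 on the junction probe, and its exon probe, at 0.04, was not called. REC107 rose by 0.30 ± 0.044 on the intron and 0.24 ± 0.048 on the exon probe, DMC1 by 0.29 ± 0.047 on the intron probe alone, and REC114 by 0.14 ± 0.043 on the intron probe while its exon probe fell to -0.18 ± 0.042. On the Cy3 arrays alone the REC107 exon probe was at -0.001 and the MEI4 junction probe at -0.09.

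Of the 21 probes 12 rose and 4 fell in ethanol, against 42.9% and 38.7% of all probes. Intron probes rose in 54 of the 97 ribosomal protein genes, and the median intron probe was at 0.30 in the 7 genes, 0.22 in the 127 and 0.19 in the 97. The intron minus exon difference rose in AMA1 (0.78 ± 0.065), DMC1 (0.44 ± 0.069), REC114 (0.32 ± 0.058) and MEI4 (0.30 ± 0.067) and fell in HOP2, 5 of 7 against 78.4% of the 231 genes called in either direction. With the names turned HOP2 was the higher and AMA1 the lower. The 3 other measured meiotic genes with introns, SPO1, PCH2 and SAE3, had exon or single probes that rose, at 0.28 to 0.44.

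Starvation with 3-AT moved the meiotic genes little. In wild type no called probe was farther than 0.29 from 0, and 2 of the 21 probes rose and 10 fell, against 31.6% and 31.5% of all probes. Without the 2 min pair, whose arrays correlated least, 14 probes were called in place of 12. The MEI4 exon probe rose by 0.20 ± 0.038 (SE, n = 6; limma adjusted p = 0.00231) and lay above 0 at 6 of 6 times, and the HFM1 exon probe by 0.17 ± 0.035, also at 6 of 6. The exon probes of REC114, REC107, AMA1 and DMC1 fell, to -0.29 ± 0.032, -0.26 ± 0.043, -0.25 ± 0.027 and -0.22 ± 0.029, and all 4 lay below 0 at every time. REC114 was lower at later times, -0.14 at 2 min and -0.54 at 20 min (slope adjusted p = 0.0313). The MEI4 intron probe, at 0.15, was not called on its mean but had a rising slope (adjusted p = 0.0309), which rests on 0.76 at 20 min, the other 5 times being at 0.18 or lower.

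Intron minus exon differences in wild type in 3-AT rose in REC114 (0.22 ± 0.052) and REC107 (0.16 ± 0.052) and fell in HFM1 (-0.18 ± 0.048), 3 of 7 against 68.4% of the 231 genes. With the names turned all 3 rose. No intron probe of the 7 rose, or 1 with the names turned, whereas 86 of the 97 ribosomal protein genes and 24 of the 127 others did. On the Cy5 arrays alone the REC107 difference was at -0.01. Left out in turn, 4 min ended the REC107 call (adjusted p = 0.0537) and 20 min the HFM1 call (adjusted p = 0.051).

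In the gcn2 deletion in 3-AT the shifts were also small. Of the 21 probes 2 rose and 7 fell, against 28.2% and 28.1% of all probes, and the farthest was the DMC1 exon probe at -0.31 ± 0.044. The exon probes of AMA1, REC114 and REC107 fell to -0.25, -0.21 and -0.19, and that of MEI4 rose by 0.15 ± 0.040, with -0.16 at 2 min and 0.41 at 20 min (slope adjusted p = 0.00277). The MEI4 intron probe rose by 0.19 ± 0.051. Without 15 min or without 20 min 5 probes were called, and in both cases the MEI4 exon, REC107 intron, DMC1 intron and REC114 junction probes were lost. Intron minus exon differences were called in DMC1 (0.19), REC114 (0.14) and AMA1 (0.13), against 62.8% of the 231 genes, and none of these 3 was called without 15 min, without the slope term or on the Cy5 arrays alone. The AMA1 difference is lower with the names turned.

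The direct course of the treated gcn2 deletion over treated wild type had 2 of 21 probes higher and 6 lower, against 25.5% and 24.8% of all probes. DMC1 was lower on its exon probe at -0.27 ± 0.031 (SE, n = 6; limma adjusted p = 0.000206), below 0 at 6 of 6 times and lowest, at -0.47, at 20 min. The REC107 intron probe was higher by 0.22 ± 0.046 (adjusted p = 0.00517), above 0 at 6 of 6 times with 0.40 as the highest, while its exon probe was at -0.02. All 3 HOP2 probes were lower, at -0.13, -0.11 and -0.13, and on the Cy5 arrays alone its exon probe was at 0.02. The AMA1 exon probe, at -0.10, was at 0.09 on the Cy5 arrays, and the MEI4 junction probe, at -0.17, at 0.12. The HFM1 intron probe, at 0.09, was at -0.005 on the Cy3 arrays. Intron minus exon differences were higher in DMC1 (0.34 ± 0.050), REC107 (0.24 ± 0.056) and AMA1 (0.23 ± 0.057), 3 of 7 against 42.4% of the 231 genes, AMA1 being lower with the names turned, and on the Cy5 arrays alone REC107 was at -0.03. Leaving out 10, 15 or 20 min left 5, 4 or 5 of the 8 calls on probes.

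The difference between both courses against untreated cells was tested directly. In 2 of the 21 probes the responses of wild type and the gcn2 deletion to 3-AT differed, against 15.4% of all probes. The response of the HFM1 exon probe was 0.19 ± 0.060 higher in wild type (limma adjusted p = 0.0475). That of the DMC1 junction probe was 0.36 lower, at -0.36 ± 0.098 (adjusted p = 0.0285). Neither passed in a fit without a slope over time, and neither probe was called in the direct course of treated cells. Under the turned names the HFM1 probe is its intron probe. No intron minus exon difference of the 7 genes passed, against 13% of the 231 genes. Whether the direct course used the same treated RNA as these courses is not stated in the labels.

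**Figure D5:**
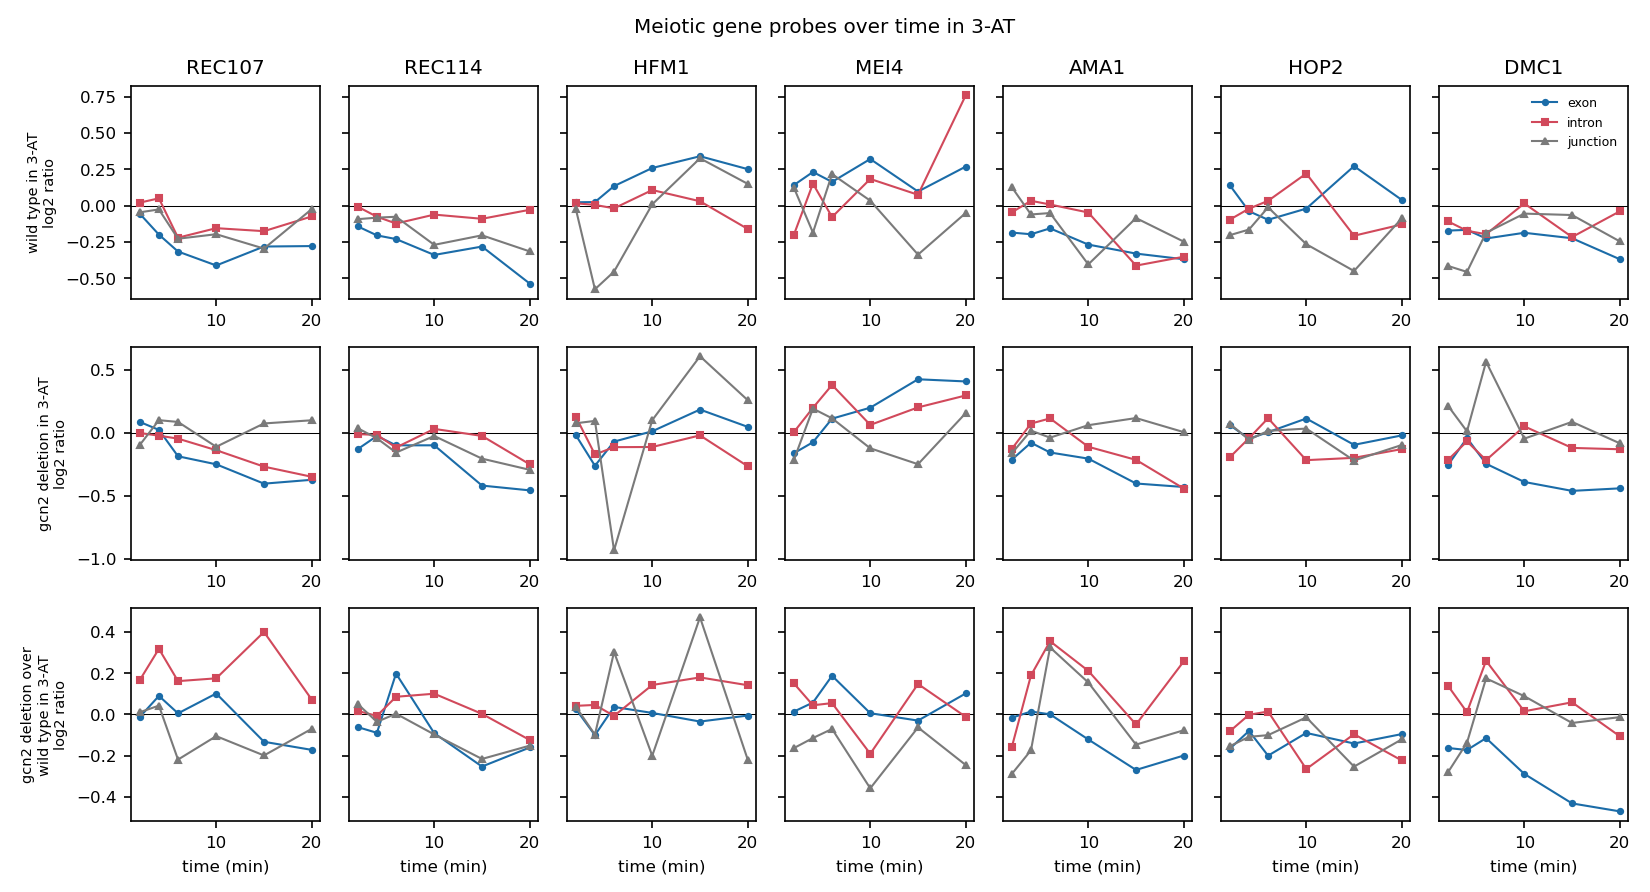
Log2 ratio (vertical axis, scaled per row) against time in minutes for the exon, intron and junction probes of each gene in wild type in 3-AT (top), the gcn2 deletion in 3-AT (middle) and the gcn2 deletion over wild type in 3-AT (bottom), each point the mean of 1 pair of arrays. Most points lie within 0.5 of 0; the HFM1 junction probe at 6 min in the gcn2 deletion, at -0.93, and the MEI4 intron probe at 20 min in wild type, at 0.76, stand out.

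Other meiotic and splicing genes were read from lists chosen by function. Among meiotic genes with introns that are not in the group, 3 of 7 were measured, and SPO1 was the only one past the limit in the upf1 deletion, at 0.67 on the exon probe and 0.49 on the intron probe. The SPO1 exon probe was also past it without Xrn1, at 0.70, while the SPO1 junction probe was past it downwards, at -0.53. Without Rrp6 and without Rtt103 the SPO1 exon probe was past the limit downwards, at -0.76 and -0.54. The 6 measured meiotic genes without introns ranged from -0.13 to 0.49 without Upf1, and none was past the limit, against 10.2% of all probes upwards and 7.42% downwards. Without Xrn1 NDT80, the transcription factor of middle meiosis, was at 1.51 and 1.25 on its 2 probes and RIM4 at 0.66. IME1, at 0.03 without Xrn1 and -0.13 without Upf1, and MER1, at 0.40 and 0.10, were not past the limit in either strain.

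Of 12 proteins of the U1 snRNP and the branch point, read by their exon or single probe, none was past the limit without Upf1, against 10.2% of all probes upwards, and 7 were past it upwards without Xrn1, against 20.7%. The junction probe of MUD1 was past it in both strains, at 0.66 and 1.41. They ranged up to 1.24 for YHC1, 0.95 for NAM8 and 0.94 for PRP42 in that strain. NAM8 was at -0.27 without Upf1. It fell in both 3-AT courses, to -0.37 ± 0.041 in wild type and -0.45 ± 0.036 in the gcn2 deletion. Most called proteins of this list had the opposite sign under 3-AT. Of the 12, limma called 6 higher and 1 lower in the wild-type course, against 31.6% and 31.5% of all probes. For the gcn2 course these counts were 6 and 2, against 28.2% and 28.1%. Of the 8 decay factors, UPF3 and NAM7, both of nonsense-mediated decay, stood at 1.00 and 0.92 without Xrn1.

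The genes whose intron probe most resembled each meiotic gene over the 30 pairs of arrays other than prp8-1 were named by Pearson's r. These pairs are the 6 times of each of 4 courses and the 6 deletions, they come from both tables, and 1 extreme pair can carry an r, so the values only describe. REC107 was most like NHP6B (0.92) and IWR1 (0.91), REC114 like NHP6B (0.89) and MTR2 (0.83), and HFM1 like TAN1 (0.95) and NCE101 (0.89). AMA1 was most like ARF2 (0.81) and TUB1 (0.80), HOP2 like RPL14B (0.83) and SCS22 (0.71), DMC1 like NYV1 (0.73) and DTD1 (0.72), and MEI4 like BET1 (0.68) and COX5B (0.66). Among the 7 themselves the intron probes of REC107 and REC114 were the most alike, at 0.85, and those of HOP2 ran against HFM1 at -0.51 and REC114 at -0.40. For AMA1, HOP2 and HFM1 every r rests on the print-order names and was not redone with the names turned.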

How the data were processed

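Values are the log ratios the authors deposited in 2 tables of array spots, one for the 3-AT courses (6144 spots) and one for the other groups (9216 spots), and they were taken as log2. For the base, the background correction, the normalization and the spot filter, the sources used here give no statement. Signal over background is unknown, so how near a probe lies to background was not tested. Precision is also limited by how many arrays there are. Cells were extracted with acid phenol and cDNA was made with aminoallyl-dUTP, per the labels. Both arrays of every pair correlated above 0, and signs were left as deposited. Spots of a probe (4 or 6) were averaged, then both arrays of a pair. Of 1536 probes, 1457 are named by the platform annotation and 79 are not. Probe kinds came from the print order, with its direction set on 224 genes other than the 7; this print-order rule was worked out from the files and replaces the spacing classes of the plan.

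Courses were fitted with limma 3.58.1 in R 4.3.3, with an intercept and centred time, and adjusted with Benjamini-Hochberg over 1536 probes or 231 differences. The gcn2 and wild-type courses were contrasted without a block, because their same-time correlations of deviations ranged from 0.076 to 0.559 and were not all over 0.1. All tests were made within 1 table. Named genes are all probes of the 7, the deleted genes, up to 4 genes per list and comparison with the largest means, and the 2 most alike intron probes per gene; IME1, IME4, MER1, NAM8 and MUD1 in some comparisons, and the neighbouring genes, are named beyond that rule, after their values were seen. The members and lists were chosen with earlier results of these data known. No sequence or coordinate is printed, since no genome was used here. Gene neighbours come from the RefSeq gene table of assembly R64.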

Additional observations from a re-analysis of the deposited data

Results flagged for a closer look

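In 105 sets of 6 time points, 5 had 1 time far from the others, and chance gives about 1 in 20. The REC114 junction probe in ethanol at 20 min was at 0.299, with the next time at -0.08, and the MEI4 junction probe at the same time was at 0.511. The HFM1 exon probe in prp8-1 was at -0.261 at 10 min. The HFM1 junction probe of the gcn2 deletion in 3-AT was at -0.934 at 6 min, with the next at 0.07. The DMC1 exon probe in wild type in 3-AT was at -0.369 at 20 min.

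By limma's contrast, 3 measures separated the 3-AT responses of wild type and gcn2 deletion: the HFM1 exon probe (0.192, wild type minus gcn2), the DMC1 junction probe (-0.36) and the DMC1 junction minus exon difference (-0.444; adjusted p = 0.043). Under the turned names the HFM1 probe is its intron probe. The DMC1 junction probe was lower on the Cy5 array in 17 of 18 pairs in 3-AT, and the part of this in the difference was not tested.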

How the results depend on the processing

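Centring each array kept 99 of 99 results on their side of the threshold, or within 1.5 times for counts, and a median over spots kept 91. The counts of called probes moved as follows. On the Cy5 arrays alone 7 probes were called in wild type in 3-AT. Without the slope term 3 were called in the gcn2 deletion in 3-AT and 5 in the direct course; with 1 time left out the counts were 5 to 10 and 4 to 9. For the difference between both courses, 0 probes passed without the slope, 1 with a median over spots, 1 on Cy5 and 0 on Cy3 arrays. With time as a replicate block, 2 probes and 0 intron minus exon differences passed, as without it; only at 20 min was the best match the same time. The intron minus exon differences called in the gcn2 deletion in 3-AT were 0 without the slope, 0 on Cy5 and 5 on Cy3 arrays, and 0 to 4 with 1 time left out. In deletions, single arrays (Cy5, Cy3) put 0 and 6 probes past the limit for rai1, 3 and 2 for rtt103 and 7 and 2 for ski2, 6 on Cy3 for rrp6 and 17 on Cy3 for xrn1. These single-array counts have no share of all probes beside them and only describe. A limit of 1 left 0 for rai1 and 4 for xrn1. The cause was not tested. Turning the exon and intron names of AMA1, HOP2 and HFM1, an alternative chosen after seeing the data, kept the number of intron minus exon differences called in each course and changed only their direction, to 6 higher and 0 lower in prp8-1.

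Signs turned on single dyes only. On Cy5 arrays the values were, in prp8-1, DMC1 exon 0.0572, HOP2 junction 0.336, REC114 junction 0.257, AMA1 junction 0.0621, and the intron minus exon differences of DMC1 -0.085 and REC107 -0.174; in ethanol, HOP2 junction 0.0532; in the direct course, HOP2 exon 0.0163, MEI4 junction 0.124, AMA1 exon 0.0863 and the REC107 difference -0.0254; in wild type in 3-AT, the REC107 difference -0.00879. On Cy3 arrays they were DMC1 junction 0.0148 in wild type in 3-AT, HFM1 intron -0.00522 in the direct course, REC107 exon -0.00124 and MEI4 junction -0.0858 in ethanol, and the AMA1 difference 0.141 in prp8-1.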
